A study of Mus musculus with 8 samples.

Results

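The genes described here are 32 genes of the complement system, measured in mouse liver after knockdown of Raly, which encodes an RNA-binding protein of the hnRNP family. They were chosen by name: every non-control probe whose gene name in the array files was one of the 32 entered. That gave 41 probes for 32 of the 23594 named genes on the array, and 7 of the genes had more than 1 probe. For testing, a gene needed a probe that the scanner software called well above background on 4 or more of the 8 arrays, which 31 of the 32 met among 14690 genes tested. Where several probes of a gene met it, the brightest represented the gene.

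The mice were of the bl6 strain, 12 weeks old and on chow. The control group received the adenoviral vector pblockITcontrol and the shRaly group received pblockITshRaly, which carries a short hairpin RNA against Raly, both at a dose written as 2e+09 without a unit. Every animal of both groups therefore carried virus, and no untreated liver is among the samples. Liver RNA was taken on day 6, and 4 arrays were run per group. Nothing in the labels says that the samples of a group are separate animals, so the p-values rest on the spread between samples, some of which may be technical.

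Complement is a set of plasma proteases, recognition molecules and receptors that marks microbes and debris for removal. In the classical pathway C1q binds antibody, its protease C1r activates C1s, and C1s cleaves C4 and C2. In the lectin pathway mannose-binding lectins and ficolins do the binding, and the MASP proteases do the cutting. The alternative pathway runs from C3 with factors B and D, and all routes meet at C3 and end in the membrane attack complex. Hepatocytes make most of the soluble components, while C1q, properdin and the receptors come largely from macrophages and other myeloid cells.

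Several of these genes yield more than 1 protein, and the probes separate them in Masp1 and Masp2, so those probe sequences are given first. Masp2 encodes the full-length protease MASP-2 and a short product, MAp19, that ends after the first domains and has no protease part. The array held 3 Masp2 probes on mouse build mm9, plus strand of chromosome 4. The probe listed under the short transcript NM_010767 at chr4:147977855-147977914 lies in the coding part that, by the known structure of the gene, both products share. The short-form probe, also listed under NM_010767, lies 542 bases downstream at chr4:147978456-147978515 and holds a polyadenylation hexamer, AATAAA, set in capitals. The full-length probe, listed under NM_001003893, lies another 10963 bases downstream at chr4:147989478-147989537, in the 3′ part that only the full-length transcript reaches. The shared probe is shown whole, the short-form probe by its last 30 bases and the full-length probe by its first 30, each 5′ to 3′ on the transcript strand.
Masp2 shared probe: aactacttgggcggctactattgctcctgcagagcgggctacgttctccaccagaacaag
Masp2 short-form probe, last 30 bases: attcaccttaaccatgacaatAATAAAcct
Masp2 full-length probe, first 30 bases: gctatattgcatcttcccacataagtcacc

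The hexamer AATAAA was found in 5602 of 55681 probes on the array (10.06%) and on the reverse strand of 3.739% of them. It was in 5 of the 41 complement probes. A match is only a description of the letters.

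Masp1 encodes MASP-1 and, through another protease exon, MASP-3. Its 3 probes lie on the minus strand of chromosome 16 in mm9. The probe listed under D16492, a MASP-1 sequence, lies at the 3′ end at chr16:23449609-23449668. The probe listed under NM_008555 lies in MASP-1 at chr16:23452460-23452519, and the probe listed under AB049755, a MASP-3 sequence, lies at chr16:23469978-23470037. They are shown because their mean differences lay on opposite sides of 0. The 3′ end probe had processed signals from 1723 to 3267 over the arrays. The other probes were far dimmer, from 79.1 to 142 for the NM_008555 probe and from 39.6 to 154 for the MASP-3 probe.
Masp1 MASP-1 3′ end probe, first 30 bases: tccaggcaactgaaatctacctcccgagaa
Masp1 MASP-1 protease probe: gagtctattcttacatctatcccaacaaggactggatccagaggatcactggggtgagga
Masp1 MASP-3 probe: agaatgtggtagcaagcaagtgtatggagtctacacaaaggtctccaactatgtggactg

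Cfi, which encodes the plasma protease factor I, had a single probe, listed under NM_007686 at chr3:129578165-129578224 on the plus strand of mm9. It is shown because every probe of Masp2 and Cfi was to be listed. Cfi was also among the complement genes whose groups did not overlap.
Cfi probe, first 30 bases: ggctagtcctaaagtttcttccaagtttat

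Signals below are given per array as a percentage of the control geometric mean of that probe, in the order replicates 1 to 4, after scaling each array to its 75th percentile. The targeted gene came first. Raly stood at 100.4%, 84.3%, 105% and 112% on the control arrays and at 51.8%, 80.9%, 58.3% and 62.7% on the shRaly arrays. The groups did not overlap, and shRaly replicate 2 had the highest Raly of its group. The mean was 62.5% of control, with a 95% interval from 49.4% to 79.2%, and the adjusted p of 0.0744 (limma, Benjamini-Hochberg over all genes tested) missed the threshold of 0.05. It passed without shRaly replicate 2 (log2 difference −0.80, adjusted p 0.0294) and with normexp background correction (log2 difference −0.71, adjusted p 0.0110, limma).

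All 8 arrays shared a slide, with the controls at 1 value of the first position number and the shRaly arrays at the other, so group and position cannot be told apart. Between 45.9% and 51.1% of non-control spots were well above background, lowest on shRaly replicate 2, and no spot was saturated. Correlations between arrays over all tested genes ran from 0.988 to 0.995 within the groups and from 0.987 to 0.993 between them. The hepatocyte markers were all measured (8 of 8), and their median log2 difference was −0.07, with none past the threshold.

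No complement gene passed the threshold at the level of genes: 0 of 31 were called in limma (adjusted p under 0.05), beside 1.3% of all genes tested (191 of 14690). At an unadjusted p under 0.05 there were 7 of 31 (22.6%), beside 16.2% of all genes. Of these, Masp2, Cd59a, Cfi and C2 had lower means with shRaly (4 of 31, beside 9.74% of all genes) and Masp1, Mbl2 and C9 had higher means (3 of 31, beside 6.48%). The groups did not overlap for 4 of 31 genes (12.9%), Masp2, Cd59a, Cfi and C1s, all lower, beside 10.4% of all genes in either direction and 6.47% in the lower direction. No complement gene had all shRaly arrays above all control arrays, beside 3.96% of all genes. The mean was lower with shRaly for 21 of 31 genes (67.7%), beside 53.6% of all genes. The median log2 difference was −0.07, beside −0.02 over all genes tested, and single genes ran from −0.69 for Cfd to 0.48 for C9.

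**Figure D1:**
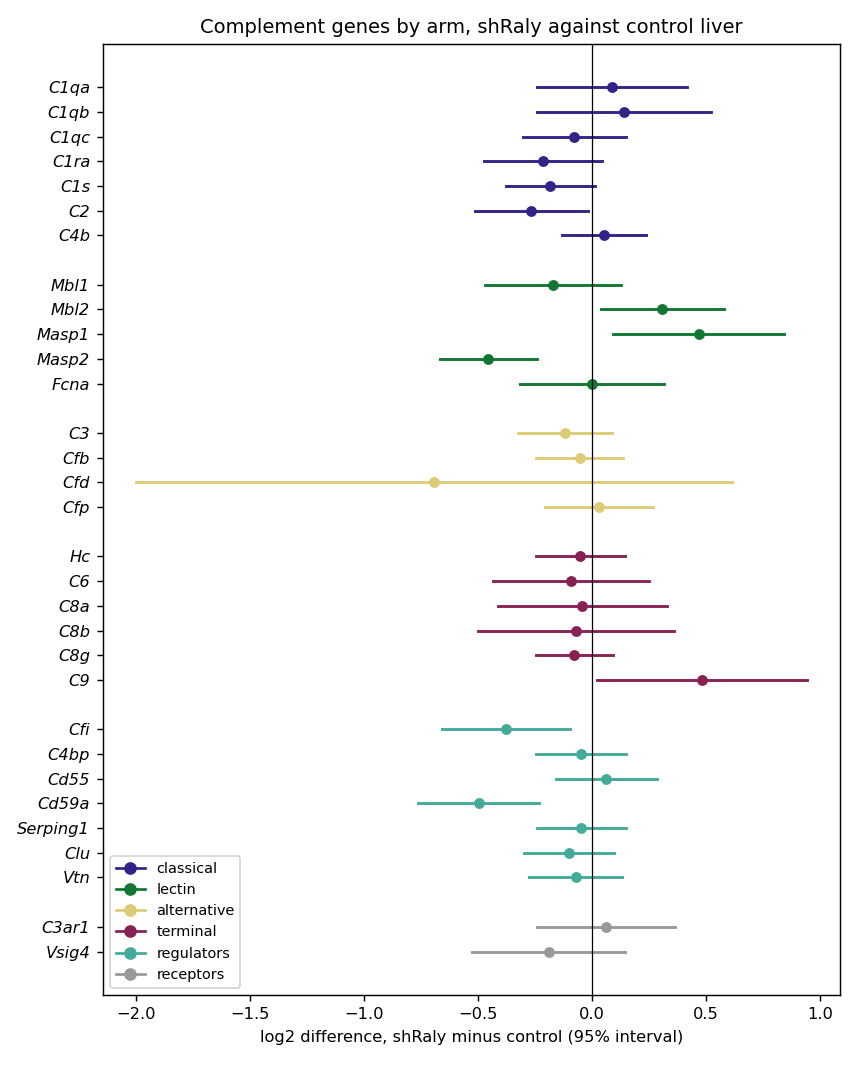
Log2 difference of each of the 31 tested complement genes, shRaly minus control, grouped by arm, with points for the limma estimate and bars for its 95% interval (4 arrays per group). Most estimates sit near 0. The intervals of Masp2, Cd59a, Cfi and C2 lie wholly below 0, those of Masp1, Mbl2 and C9 lie wholly above it, and Cfd has the widest interval.

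The lectin arm held the 1 called complement probe, that of full-length Masp2, and its genes lay on different sides of control. Fitted over all 26936 probes that passed the filter, the full-length Masp2 probe was the only 1 of the 40 complement probes tested to pass the threshold, beside 0.698% of all probes (188 of 26936) and 0.549% in the lower direction. Its signal was 87.1%, 106%, 100.5% and 108% on the control arrays and 40.7%, 54.0%, 37.0% and 40.4% on the shRaly arrays. Every shRaly array was well below every control array. The full-length probe fell to 42.6% of control (95% interval 34.3% to 52.8%), a log2 difference of −1.23 with a standard error of 0.14 and an adjusted p of 0.0138 (limma over all probes). The call was lost without control replicate 2 (adjusted p 0.0618), without control replicate 3 (0.0573) and without shRaly replicate 4 (0.0575), while the log2 difference stayed between −1.35 and −1.10 over all alternatives. It was also lost with no filter on dim probes (0.0595, limma).

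The other Masp2 probes lay lower with shRaly by less. The short-form probe, the brightest and so the one that stands for the gene, was at 102%, 104%, 96.5% and 98.1% on the control arrays and at 68.3%, 83.0%, 74.99% and 66.8% on the shRaly arrays. The shared probe was at 109.9%, 101%, 90.4% and 99.5% on the control arrays and at 65.6%, 78.6%, 69.9% and 64.8% on the shRaly arrays. For neither probe did the groups overlap, and shRaly replicate 2 was the highest of its group on all 3 Masp2 probes. In the fit over probes the short-form probe was at 73.0% of control (log2 difference −0.45, adjusted p 0.0847) and the shared probe at 69.5% (log2 difference −0.52, adjusted p 0.0670, limma), both short of the threshold. In the fit over genes Masp2 had an adjusted p of 0.0595 (limma). Averaging its probes gave a log2 difference of −0.74 with an adjusted p of 0.0175 (limma), so the choice of probe decided that call. It was also called with normexp background correction (adjusted p 0.0297) and without shRaly replicate 2 (adjusted p 0.0379, limma).

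The Masp2 probes were then compared within each array, which removes the scaling of the array. The log2 difference, full-length minus short-form probe, was lower in the shRaly group by 0.78, with standard deviations of 0.16 and 0.17 over 4 arrays each. No array of a group reached into the other group. The exact two-sided permutation p was 0.0286, the smallest that 4 against 4 arrays allow, and 0.0571 after adjustment over 6 probe pairs. These pairs were of Masp2 and Masp1 only, though 7 complement genes had several probes. They use the same arrays on which the full-length probe was called, so this p is not separate evidence. The full-length minus shared probe gave −0.71 with the same exact p. Short-form minus shared gave 0.07 with an exact p of 0.171. Such ratios show unequal change and not which transcript changed.

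Masp1, the protease that cleaves MASP-2 and itself, gave probe means on opposite sides of control, none of them past the threshold. Its brightest probe, at the 3′ end of MASP-1, was at 85.8%, 104%, 136% and 81.9% on the control arrays and at 127%, 158%, 140.3% and 130.1% on the shRaly arrays. Control replicate 3 overlapped the shRaly range. The log2 difference was 0.47 (SE 0.17) with an adjusted p of 0.210 (limma over genes), and the mean of the Masp1 probes gave 0.09 (adjusted p 0.851, limma). The MASP-1 protease probe was at 89.5%, 106%, 127% and 83.5% against 86.0%, 154%, 112% and 123%, a log2 difference of 0.22 (SE 0.20) with wide overlap.

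The MASP-3 probe was at 157%, 83.2%, 112% and 68.2% on the control arrays and at 49.97%, 74.9%, 95.7% and 88.9% on the shRaly arrays. Its log2 difference was −0.41 (SE 0.29), and the groups overlapped. Within arrays, the MASP-1 3′ end probe minus the MASP-3 probe was higher with shRaly by 0.88 on the log2 scale, with standard deviations of 0.58 and 0.40 and no overlap (exact permutation p 0.0286, adjusted 0.0571). The protease probe minus the MASP-3 probe was higher by 0.63 (exact permutation p 0.0857, adjusted 0.103). No pair passed the threshold after adjustment. The Masp1 probes were shown for their opposite means on these same arrays, so these p-values are not separate evidence. The adjustment covers only the pairs chosen.

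**Figure D2:**
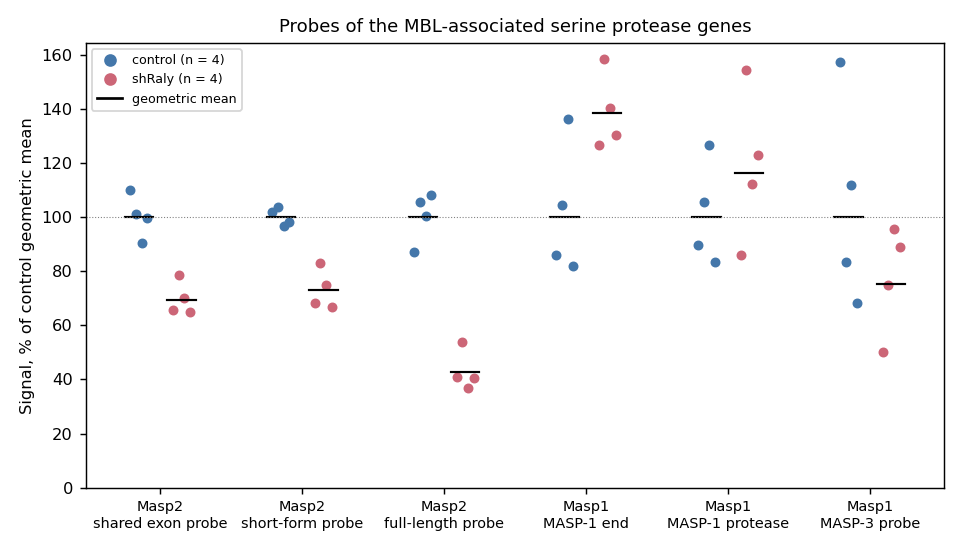
Signal of each Masp2 and Masp1 probe on every array as a percentage of the control geometric mean (points, 4 arrays per group, with bars for the geometric mean). The full-length Masp2 probe sits between 37.0% and 54.0% in the shRaly group, below the other Masp2 probes, and the MASP-1 3′ end and MASP-3 probes of Masp1 have means on opposite sides of control.

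The lectins that recruit these proteases did not move together. Mbl2, a mannose-binding lectin, was at 97.6%, 103%, 86.8% and 115% on the control arrays and at 124%, 108%, 124% and 143% on the shRaly arrays, with shRaly replicate 2 inside the control range. Its log2 difference was 0.31 (SE 0.12, adjusted p 0.251, limma). Mbl1, the other mannose-binding lectin, had a log2 difference of −0.17 (SE 0.13), and Fcna, a ficolin, had 0.00 with an interval from 80.3% to 125% of control.

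The classical arm held no called gene, and its proteases and C2 had means below control while the C1q chains did not share a direction. C2, the protease part of the C3 convertase, was at 88.3%, 104%, 108% and 101% on the control arrays and at 71.7%, 90.9%, 81.4% and 90.1% on the shRaly arrays. The groups met at control replicate 1. The log2 difference was −0.27 (SE 0.11, adjusted p 0.275, limma). C1s, the protease that cleaves C4 and C2, was at 108%, 93.4%, 104% and 95.6% against 92.0%, 84.3%, 91.9% and 84.6%. The groups did not overlap, but the difference was small, at 88.1% of control (95% interval 77.0% to 101%, adjusted p 0.339, limma).

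C1ra, which activates C1s, was at 86.2% of control (adjusted p 0.400, limma), and its other probe had a log2 difference of −0.13. C4b, the substrate of C1s and source of the convertase's anchor, was at 104% of control, with an interval from 91.2% to 118%. Its probe is listed for C4a too, so the neighbouring genes cannot be told apart.

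The 3 chains of C1q, made by macrophages, had log2 differences of 0.09 for C1qa, 0.14 for C1qb and −0.08 for C1qc. C1qb shows why no direction can be read: it spanned only 98.7% to 102% on the control arrays but 78.7% to 138% on the shRaly arrays. The same shRaly array, replicate 1, was lowest for all 3 chains. Markers of Kupffer cells and macrophages (7 of 8 tested, Timd4 not above background) had a median log2 difference of −0.02, and relative to the control mean their median was −0.28 on shRaly replicate 1 and −0.38 on control replicate 1. Their part in the C1q values was not tested. In whole liver, fewer cells of a type and less RNA per cell cannot be told apart.

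In the alternative arm no gene was called, and the genes that hepatocytes express most strongly stayed close to control. C3, the component on which all pathways act, was at 98.0%, 105%, 95.4% and 101% on the control arrays and at 93.9%, 103%, 85.7% and 87.0% on the shRaly arrays. The groups overlapped at shRaly replicate 2. The mean was 92.1% of control (95% interval 80.0% to 106%, adjusted p 0.556, limma), and the other C3 probe also had a log2 difference of −0.12. Cfb, factor B, was at 96.3% of control (84.4% to 109.9%), and Cfp, which encodes properdin, the stabiliser of the convertase, was at 102% (86.6% to 120.4%).

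Cfd, factor D or adipsin, is a protease made chiefly by adipocytes. It was at 237%, 78.5%, 61.3% and 87.6% on the control arrays and at 130.4%, 46.4%, 99.7% and 24.3% on the shRaly arrays. Both groups held a high first replicate, and the values overlapped widely. The log2 difference of −0.69 had a standard error of 0.58 (adjusted p 0.591, limma). It was −0.28 without control replicate 1, −0.24 without shRaly replicate 4 and −1.05 without shRaly replicate 1.

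Adipocyte markers varied on the same arrays. Retn was at 240.0%, 69.96%, 49.7% and 120% against 173%, 65.2%, 85.8% and 112%, and Cidec at 196%, 94.0%, 56.5% and 96.3% against 185%, 74.5%, 106% and 92.1%. The first replicate of each group was the highest for both markers, as it was for Cfd. The third marker tested, Cidea, was at 163%, 72.2%, 100.2% and 84.6% against 229%, 31.6%, 239% and 91.02%, with shRaly replicate 3 the highest of its group. Of 6 markers 3 were tested, with a median log2 difference of 0.11. On the single arrays their median ran from −0.82 to 0.97 in the control group and from −0.62 to 0.88 in the shRaly group, on the log2 scale relative to the control mean. Plin1 and Lep were above background on no array, and Adipoq was above it on 1 control and 1 shRaly array. The part of adipose RNA in the Cfd values was not tested.

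**Figure D3:**
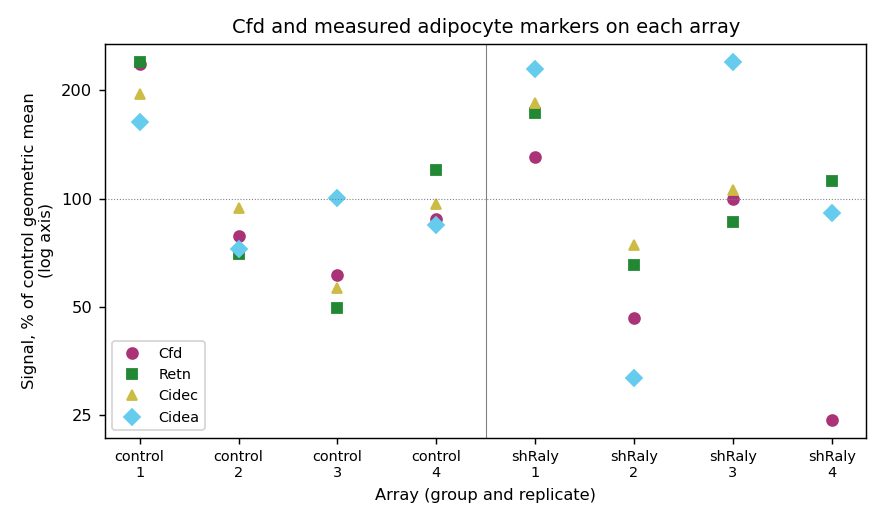
Cfd and the measured adipocyte markers on each array, as a percentage of each gene's control geometric mean on a log axis. Cfd, Retn and Cidec were highest on control replicate 1 and on shRaly replicate 1 within their groups, and Cidea was highest on control replicate 1 and on shRaly replicate 3.

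The terminal arm, whose products build the membrane attack complex, held no called gene either. C9, which forms the pore, was at 76.9%, 98.6%, 124% and 107% on the control arrays and at 97.8%, 139.8%, 167% and 167% on the shRaly arrays. The first shRaly replicate lay inside the control range and the other 3 lay above it. The log2 difference was 0.48 (SE 0.20, adjusted p 0.285, limma). C8g, the small chain of C8, was at 104%, 99.3%, 96.2% and 100.3% against 98.2%, 94.4%, 94.0% and 92.4%, or 94.7% of control (84.2% to 106%, adjusted p 0.651, limma). It overlapped at shRaly replicate 1, and its other probe had a log2 difference of −0.30.

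The other chains were near control. Hc, which encodes C5, was at 96.4% of control (84.2% to 110.4%) and C6 at 93.9% (74.1% to 119%). C8a was at 97.2% (75.04% to 126%) and C8b at 95.2% (70.7% to 128%). C8a's other probe had a log2 difference of 0.06, against −0.04 for the brighter one, so the gene has no settled direction.

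Among the regulators, which keep complement off the body's own cells, the surface inhibitor Cd59a and factor I had the lowest values and the plasma inhibitors were close to control. Cd59a, which blocks assembly of the pore, was at 108%, 93.3%, 103% and 96.6% on the control arrays and at 59.7%, 82.8%, 76.5% and 66.8% on the shRaly arrays. The groups did not overlap. The mean was 70.9% of control (95% interval 59.0% to 85.3%), with a log2 difference of −0.50 (SE 0.12) and an adjusted p of 0.0885 (limma), short of the threshold. With normexp background correction it passed, at an adjusted p of 0.0331 (limma). Cfi, whose product cuts C3b and C4b, was at 94.6%, 98.6%, 97.8% and 109.7% against 63.7%, 91.3%, 83.5% and 72.3%. All shRaly arrays were below all control arrays, with shRaly replicate 2 closest to them. The mean was 77.0% of control, with a log2 difference of −0.38 (SE 0.12) and an adjusted p of 0.186 over genes and 0.228 over probes (limma).

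The other 5 regulators ranged from 93.2% of control for Clu, which binds the terminal complex, to 104% for Cd55, which takes convertases apart. Between them lay Vtn, vitronectin, at 95.1%, C4bp, the cofactor for C4b cleavage, at 96.7%, and Serping1, the C1 inhibitor, at 96.8%. The widest of their 95% intervals was that of Cd55, from 89.6% to 122%. Serping1's other probe had a log2 difference of −0.11.

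Of the receptors, Vsig4, the C3b receptor of Kupffer cells, was at 77.5%, 93.1%, 118% and 117% on the control arrays and at 88.8%, 96.8%, 78.9% and 87.0% on the shRaly arrays. The values overlapped (log2 difference −0.19, SE 0.15, adjusted p 0.565, limma). C3ar1, the receptor for C3a, was at 111%, 115%, 81.6% and 96.0% against 111%, 91.3%, 99.5% and 117%, with a log2 difference of 0.06 (SE 0.13, adjusted p 0.867, limma). It was dim, with processed signals from 23.0 to 32.2 in the control group and from 21.6 to 32.3 in the shRaly group. C5ar1, the receptor for C5a, was the gene not tested: it was well above background on 1 control and 2 shRaly arrays, with processed signals from 6.3 to 15.5 in the control group and from 8.9 to 19.6 in the shRaly group.

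**Figure D4:**
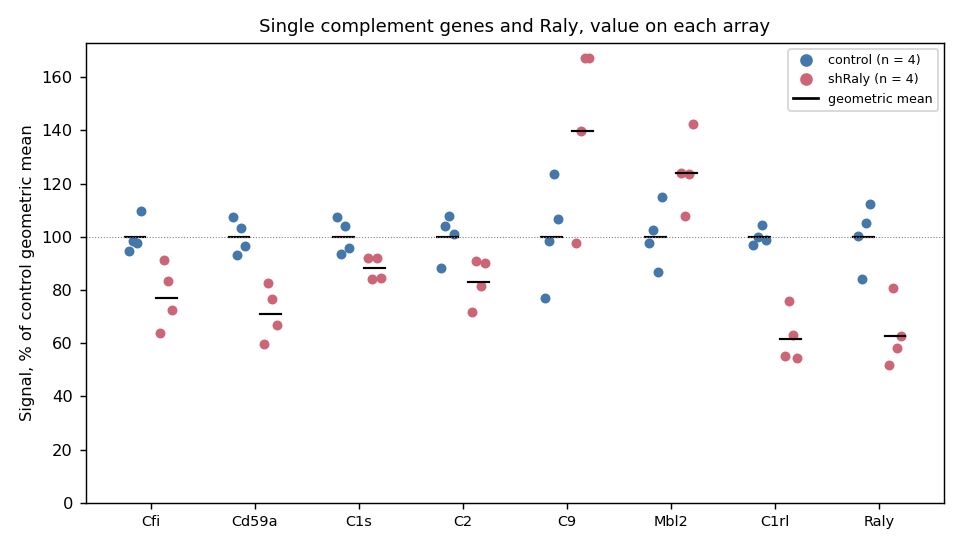
Signal on every array, as a percentage of the control geometric mean, for Cfi, Cd59a, C1s, C2, C9, Mbl2, the further complement gene C1rl and Raly (points, 4 arrays per group, with bars for the geometric mean). The shRaly points of Cfi, Cd59a, C1s, C1rl and Raly lie below all control points of the same gene, whereas those of C2, C9 and Mbl2 overlap the control range.

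Compared as arms, none stood far from the rest of the array. The median log2 difference over the tested genes was −0.08 for the classical arm (7 genes), 0.00 for the lectin arm (5 genes), −0.09 for the alternative arm (4 genes) and −0.06 for the terminal arm (6 genes). It was −0.07 for the regulators (7 genes) and −0.06 for the receptors (2 genes), beside −0.02 over all genes tested. The median of 0.00 in the lectin arm is that of Fcna alone, set between Masp2 at −0.45 and Masp1 at 0.47. On single arrays the arm medians moved as far as the groups differed: the classical median was −0.14 on control replicate 1 and 0.09 on control replicate 3, and it was −0.32 on shRaly replicate 1 and 0.01 on shRaly replicate 2.

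**Figure D5:**
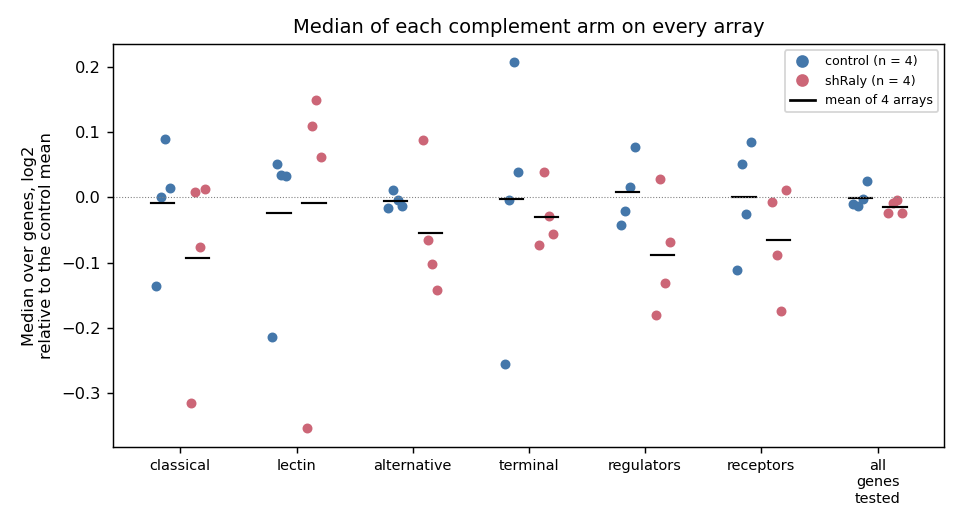
Median over the tested genes of each arm, and over all genes tested, on every array, in log2 units relative to the control mean (points, 4 arrays per group, with bars for their mean). In no arm or group do all shRaly points lie below or above all control points. The lowest point of the classical arm, the lectin arm and the regulators is shRaly replicate 1.

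Some arrays were more often the lowest or highest of their group for complement genes than for all genes. Control replicate 1 was the lowest control for 16 of 31 genes (51.6%), beside 31.6% of all genes, and shRaly replicate 1 was the lowest shRaly array for 19 of 31 (61.3%), beside 33.8%. Control replicate 3 was the highest control for 14 of 31 (45.2%), beside 21.7% of all genes. In the shRaly group replicate 2, which had the highest Raly, was the highest array for 13 of 31 (41.9%), beside 22.2%. Those 13 held Masp2, Cfi, Cd59a and C2, whose means were lower with shRaly, and Masp1, whose mean was higher. The rest were C3, Cfp, C8a, C8b, Clu, Vtn, Serping1 and Vsig4, each with an unadjusted p of 0.05 or more (limma). Replicate 2 also had the lowest share of spots well above background, 45.9%.

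Some of these genes are neighbours and could be compared by place in mm9. The C1q chains lie within 15.891 kb of chromosome 4, C1ra and C1s within 8.161 kb of chromosome 6, and C8a and C8b within 22.241 kb of chromosome 4. C2, Cfb and C4b lie within 134.307 kb of chromosome 17 and had log2 differences of −0.27, −0.05 and 0.05. Their intervals overlapped, from −0.51 to −0.02 for C2, from −0.25 to 0.14 for Cfb and from −0.13 to 0.24 for C4b. Whether these neighbours differ in size or direction was not tested. C1ra and C1s were close, at −0.21 and −0.18.

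A further 30 complement gene names, such as factor H and its relatives, carboxypeptidase N, collectins and integrin receptors, were read in the same fit. Of these 25 were tested, and 1 passed the threshold in the lower direction (beside 0.973% of all genes) and 0 in the higher direction (beside 0.327%). The mean was lower with shRaly for 19 of 25 (76%), beside 53.6% of all genes. Their median log2 difference was −0.13, beside −0.02 over all genes tested. Single genes ran from −1.11 for Cd46 to 0.45 for Itgax. The called gene was C1rl, a serine protease related to C1r and made in liver. It was at 96.8%, 100.1%, 104% and 98.9% on the control arrays and at 55.1%, 75.8%, 63.2% and 54.5% on the shRaly arrays, with no overlap. C1rl fell to 61.6% of control (95% interval 51.2% to 74.0%), a log2 difference of −0.70 (SE 0.12, adjusted p 0.0341, limma). The call was lost on leaving out any 1 of 7 of the 8 arrays, and kept only without shRaly replicate 2 (adjusted p from 0.0131 to 0.106, limma). Its highest shRaly value was again on replicate 2.

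Cd46, a membrane cofactor for factor I, was at 46.4% of control (adjusted p 0.0641, limma). It was well above background on 4 control arrays and on 1 shRaly array, so the shRaly value rests on dim spots. The same holds for Csmd1 (log2 difference −1.01), well above background on 3 control arrays and 1 shRaly array. C7, Fcnb and Ptx3 were not above background on any array, and C1sb and C4a had no probe under those names. C1sb is an older name of C1s2, which was tested and was at 94.6% of control (adjusted p 0.684, limma).

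Genes that often change with complement, or that mark other cells, were set beside these values. Of 10 acute phase genes none was called, and their median log2 difference was −0.12, from −0.63 for Fga, a fibrinogen chain, to 0.65 for Saa3. Neutrophil markers (5 of 6 tested) had a median of 0.40 with none called. On single arrays that median ran from −0.63 to 0.48 in the control group and from 0.18 to 0.57 in the shRaly group. The median was −0.01 for endothelial markers (6), −0.15 for stellate cell and fibroblast markers (7) and −0.34 for T and B lymphocyte markers (6), again with none called. Single T and B lymphocyte markers ran from −0.75 to 0.23. The 8 hepatocyte markers ran from −0.47 for Apoa1 to 0.44 for Tat on the log2 scale, none of them called. The part of these lists in the complement values was not tested.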

How the data were processed

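RNA from 8 mouse liver samples was measured on single-colour Agilent arrays. The deposited spot intensity was made with Agilent Feature Extraction (11.5.1.1 per the file headers, 11.5.1.11 per the submitters' processing notes), which subtracted local background and did not scale between arrays. The deposited series table equals this processed signal for 62976 of 62976 spots. For this report processed signals were converted to log2 and scaled by subtracting the 75th percentile of an array's 59305 non-control spots. Spots flagged as outliers (137 to 163 per array) were set to missing, and spots of a probe were averaged. Groups came from the sample titles. Genes or probes well above background on at least 4 arrays, with at least 3 values per group, were compared with limma 3.58.1 in R 4.3.3 (lmFit, eBayes, Benjamini-Hochberg, threshold 0.05). Probe ratios were tested by exact permutation. The fit was tested on simulated data. The number of arrays limits the precision.

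Gene names came from the accessions in the files through a table of assembly GRCm38.p6, used for names only (27617 probes by accession, 3399 by current symbol, 321 by older symbol, 1328 by the name in the file, 22975 with none). Coordinates are those of the files, and exon and UTR annotation on mm9 was not used here. Which product a Masp1 or Masp2 probe reads follows from its listed accession and the known gene structure. The members and gene lists were chosen with earlier results of these data known. Values are given on every array for Masp2, Cfi and the pair of genes with the smallest p in each arm. From the further complement list, genes past the threshold were named. Cd46, Csmd1, Itgax, Apoa1, Tat, Fga and Saa3 were chosen after their values were seen. Alternatives were normexp background correction, quantile normalization, median scaling, the filter, the mean of probes, a replicate block and leaving out each array.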

Additional observations from a re-analysis of the deposited data

Results flagged for a closer look

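Within the groups of 4 arrays, 3 of the 62 groups tested held a sample set far apart from its group, and chance alone gives about 1 in 20. C1ra on control replicate 1 was at 87.4% of the control mean, with the other controls from 103% to 106%. C4b on control replicate 4 was at 110.2%, with the other controls from 95.7% to 97.8%. Cfp on shRaly replicate 3 was at 89.0%, with the other shRaly arrays from 106% to 108%.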

How the results depend on the processing

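The number of complement genes called, 0 of 31, became 2 with normexp background correction (Masp2, adjusted p 0.0297, and Cd59a, 0.0331, limma), 1 with the mean of a gene's probes (Masp2) and 0 to 1 on leaving out each array (1 without shRaly replicate 2, Masp2, adjusted p 0.0379, limma). The number of complement probes called, 1, became 3 with normexp, 0 with no filter on dim probes and 0 to 1 on leaving out each array. Over the whole array 191 genes became 43 with no filter, and 18 (without control replicate 2) to 287 (without shRaly replicate 2) on leaving out each array. Samples sharing a replicate number did not deviate together (correlations 0.090, −0.018, −0.070 and 0.137), so the numbers were not taken to pair them. With a replicate block 52 genes were called, 0 of them complement genes, and the full-length Masp2 probe kept an adjusted p of 0.0442 (limma). C1rl lost its call with median scaling (adjusted p 0.0526), no filter (0.0989) and the replicate block (0.0896, limma). The alternative arm's median was −0.15 with normexp, −0.046 with quantile normalization and −0.11 with median scaling, and −0.11 to −0.067 on leaving out each array. The regulators' median was −0.14 with normexp and −0.13 to −0.036 on leaving out each array, and the receptors' median was 0.060 with no filter, which adds C5ar1. The other arms also moved: on leaving out each array the terminal median ran from −0.13 to 0.0073, the lectin median from −0.078 to 0.12 and the classical median from −0.14 to −0.036, and with normexp they were −0.14, −0.062 and −0.13. Signs turned for genes near 0, none of them called: C4b −0.034 and Fcna −0.062 with normexp, Fcna −0.027 with median scaling, and C8a 0.0060 with quantile normalization and 0.0072 with the mean of probes. On leaving out each array the ranges that crossed 0 were −0.078 to 0.12 for Fcna, −0.036 to 0.096 for Cfp, −0.22 to 0.044 for C8b, −0.16 to 0.063 for C8a, −0.037 to 0.13 for C3ar1 and −0.16 to 0.017 for C6. Beyond the fewer arrays or other genes tested, the cause was not tested. The deposited table gave the same values as the array files. A slide block could not be fitted, since the arrays share a slide.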
